A study of Homo sapiens with 10 samples.

Results

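The cytosolic ribosomal protein genes encode the protein parts of the ribosome, named RPL for the large subunit and RPS for the small subunit. They were taken from the listed gene symbols by their names alone, as RPL or RPS followed by a number and, for some, a closing A, X, Y or L. This gave 83 of the 20535 listed genes, 49 of the large and 34 of the small subunit. RNA-seq had been performed on K562 cells, an immortalized myelogenous leukemia line, to read the transcriptome after perturbation of HS2, an enhancer in the locus control region of the β-globin genes. The 10 libraries fall into 5 groups of 2, all without any treatment named in the labels. The control libraries carried sgGal4, a nontargeting sgRNA. The remaining libraries carried sgHS2, together with dCas9-KRAB in group K and dCas9-LSD1 in group L, while groups LK and KL had enCRISPRi-LK and enCRISPRi-KL. KRAB is a repressor domain, LSD1 a histone demethylase, and the enCRISPRi systems bring both to the target, one fused to dCas9 and the other recruited through MS2 hairpins of the sgRNA. By the methods of the study, the lines came from lentiviral transduction, sorting on fluorescent markers and induction by doxycycline. The labels name no effector for the sgGal4 libraries, so the guide and the effector cannot be told apart in a comparison with sgGal4. The study describes the 2 libraries of a group as 2 experiments, but the labels do not say that they came from separate cultures, and the p-values measure the spread between these libraries only, part of which may be technical.

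Ribosomal proteins assemble with ribosomal RNA in the nucleolus, and each mature ribosome holds close to one copy of nearly every member. Their mRNAs are among the most abundant in dividing cells. Most begin with a C followed by a run of pyrimidines at the start of transcription, the 5′ terminal oligopyrimidine (TOP) tract, through which mTOR signaling sets how well they are translated. In the erythroid lineage they are known from Diamond-Blackfan anemia, in which one copy of a ribosomal protein gene is mutated and red cell precursors fail. Several members have duplicated copies elsewhere in the genome, either expressed paralogues or processed pseudogenes.

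The starts of transcription are shown for members on which the results turn, since the TOP tract is a feature that the members share and that their names do not fix. RefSeq promoter windows (GRCh38.p14, 250 bases before to 50 bases from the start) were matched for 65 of the 83 members. Each line gives 35 bases before the start and 15 bases from it, 5′ to 3′ on the strand of the gene, and the capitals mark the run of pyrimidines that opens with a C at the start.
RPS23: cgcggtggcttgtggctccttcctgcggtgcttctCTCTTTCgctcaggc
RPL36: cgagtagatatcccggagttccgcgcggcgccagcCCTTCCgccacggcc
RPL31: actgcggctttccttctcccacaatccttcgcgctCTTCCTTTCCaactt
RPL38: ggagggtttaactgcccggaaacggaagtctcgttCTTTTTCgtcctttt
RPS21: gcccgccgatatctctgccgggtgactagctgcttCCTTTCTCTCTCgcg
RPS27: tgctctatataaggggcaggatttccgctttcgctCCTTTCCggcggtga
RPL14: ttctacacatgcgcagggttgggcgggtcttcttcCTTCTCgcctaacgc
RPS26: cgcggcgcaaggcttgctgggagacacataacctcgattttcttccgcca
RPL7L1: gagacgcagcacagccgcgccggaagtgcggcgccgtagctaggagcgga
RPS27L: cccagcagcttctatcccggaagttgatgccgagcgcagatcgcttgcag
The first 5 are members that rose in at least 3 of the comparisons with sgGal4, RPS27 had the highest level, RPL14 varied least, RPS26 rose with a start that opens with a G in RefSeq, and RPL7L1 and RPS27L are paralogues. On GRCh38.p14, the window of RPS23 lies on the minus strand at chr5:82278340-82278389, that of RPL36 on the plus strand at chr19:5690260-5690309, and that of RPL31 on the plus strand at chr2:101002254-101002303.

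A C at the start with a run of at least 6 pyrimidines stood at 43 of the 81 RefSeq starts of members (53.1%), against 3.02% of all 35116 starts. By gene, 43 of 65 members (66.2%) had at least 1 such start, against 3.83% of all 27305 genes. The letters CCGGAA, searched on both strands, stood in 54.3% of the member windows and 17.2% of all windows. ATGGCG was found in 30 of the 81 member windows and in 10.7% of all, CTTTCC in 44.4% and 26.3%, and TATAAA in 7.41% and 11.5%. CTTTCC can overlap the pyrimidine run itself, as it does in RPL31. Among the members called higher in the mean of the sgHS2 groups, described further on, 15 of the 18 with a RefSeq window held the run, and among the other tested members 20 of 37 did. The other tested members include paralogues whose starts lack the run, such as RPL7L1, RPS27L and RPL26L1, though RPL22L1 holds it. A link between the run and the rise was not tested. Members listed at 0 held it as well, in 8 of the 10 with a window.

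The files list for every gene and library 1 value in TPM, a unit that gives a transcript's part of the whole transcript pool. A higher TPM of one group of genes therefore cannot be told apart from a lower amount of other transcripts, and in bulk RNA fewer cells of a type cannot be told apart from less RNA per cell. TPM keeps no read totals, so the depth behind each value is unknown. The mitochondrially encoded genes took 39.9 to 53.6% of the listed TPM, with 53.6% in sgGal4 replicate 1 and 43.7% in sgGal4 replicate 2. Of 14 fixed K562 and erythroid markers, 13 had a mean of at least 1 TPM, and GATA1 was listed at 0 in all 10 libraries. Of the marker lists of other cell types, the T cell list (CD3E, CD3D and CD2) summed to between 26.1 and 33.6 TPM in sgGal4 and between 1.65 and 21.3 TPM in the other libraries, with 2 of its 3 genes at 0 in all libraries. The epithelial list (EPCAM, KRT18, KRT19 and CDH1) summed to between 158 and 285 TPM, and the B cell, myeloid and fibroblast lists to at most 7.94 TPM in any library. The part of these markers in the results was not tested.

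Of the 83 members, 70 averaged 1 TPM or more and were tested, 44 of the large and 26 of the small subunit. Their median mean level was 852 TPM, against 14.2 TPM over the 10127 genes tested. The highest was RPS27, a zinc-finger protein of the small subunit, with a mean of 4401 TPM. Other high levels were those of RPS23, which lines the decoding center, with 2671 TPM, RPL38 with 2614 TPM and RPL28 with 2434 TPM. These TPM are levels per transcript length, and the order among genes is uncertain for members that share much of their sequence with other places, RPS27 among them, as described further on. In total 29 members had a mean over 1000 TPM and 64 over 100 TPM.

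**Figure D1:**
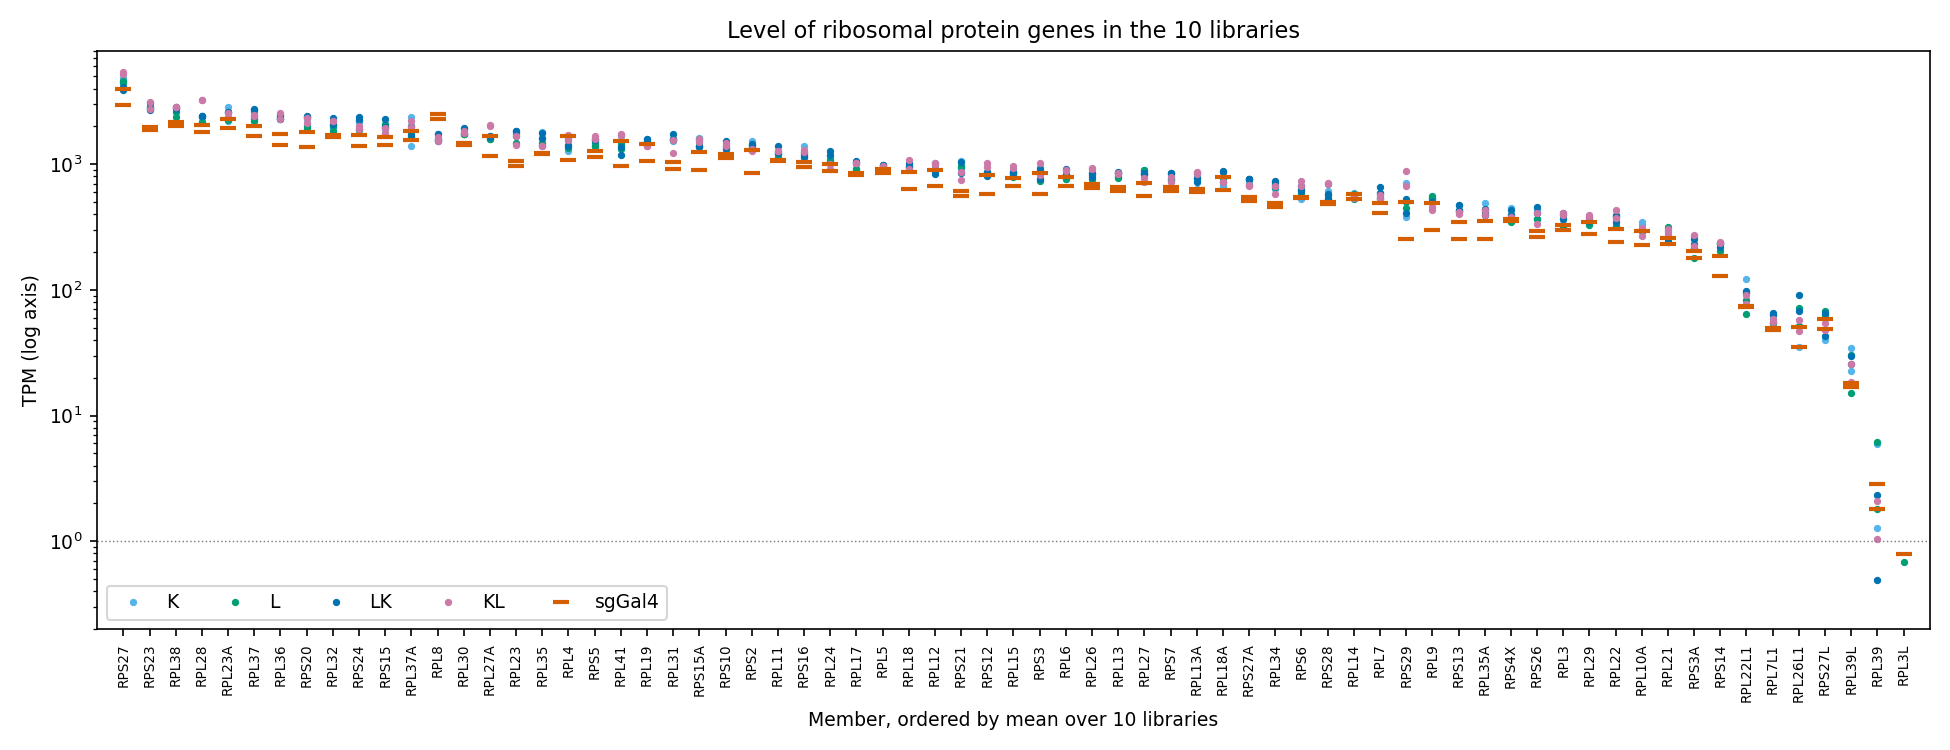
TPM of 69 of the 72 members above 0 in at least 1 library (log axis), the other 3 being genes not reported here, ordered by mean; dots are the 8 sgHS2 libraries, orange bars the 2 sgGal4 libraries, and the dotted line is 1 TPM. The sgGal4 bars lie at the lower edge for most members and above all dots for RPL8; values at 0 are not drawn.

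The lowest of the tested members were mainly paralogues. RPL39, whose protein lines the exit tunnel, had a mean of 2.59 TPM, and its paralogue RPL39L, known from testis, 23.8 TPM. RPS27L lay between 40.3 and 67.5 TPM in the 10 libraries, and the means were 56.1 TPM for RPL26L1 and 56.3 TPM for RPL7L1. RPL22L1 had a mean of 87.6 TPM. RPL3L, a paralogue known from striated muscle, was listed at 0.79 TPM in sgGal4 replicate 1, at 0.68 TPM in L replicate 1 and at 0 in the other libraries.

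In mean TPM, RPS27L stood at 1.25% of RPS27, and RPL26 was 14.3-fold higher than RPL26L1 and RPL7 9.74-fold higher than RPL7L1. RPL22L1 stood at between 16.3 and 32.3% of RPL22 in the 10 libraries, and RPL7L1 at between 8.44 and 12.1% of RPL7. The order was the other way around for RPL39L, which was 9.18-fold higher than RPL39 in mean TPM. That ratio rests on the low values of RPL39, which lay between 0.49 and 6.19 TPM, and RPL39L stood at between 245 and 6118% of it in single libraries. RPS4X, the X-linked copy, had a mean of 386 TPM, while its Y-linked copies RPS4Y1 and RPS4Y2 were listed at 0 in every library.

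A further 11 members, 4 of the large and 7 of the small subunit, were listed at 0 in all 10 libraries. Among them were RPL7A, RPL10, RPL10L, RPL36A, RPS4Y1, RPS4Y2, RPS9, RPS18, RPS19 and RPS25. RPL10L is a testis paralogue and RPS4Y1 and RPS4Y2 are on chromosome Y. RPL36A has a paralogue outside the naming rule, RPL36AL, which was listed at between 253 and 413 TPM. The others named encode standard parts of the ribosome, and RPS19 is the gene most often mutated in Diamond-Blackfan anemia. A value of 0 for such genes can be a failed estimate, so it is given only as the listed value. Of all listed genes, 6069 (29.6%) were at 0 in every library, against 13.3% of the members.

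The authors kept reads with a single place in the genome, and the sequence that each member shares with other places was therefore measured. For each member, the share of 75-base windows of 1 GENCODE transcript that occur without a mismatch elsewhere in GRCh37 was computed. The median share was 22.4% over the 11 members at 0 and 17.0% over the 70 tested members. RPS19 shared no window and was at 0, RPS9 shared 6.26%, RPL10 22.4%, RPS18 31.8%, RPL36A 47.3%, RPS25 53.8% and RPL7A 55.2%. RPL39 shared 93.4% of its windows and had a mean of 2.59 TPM, but RPS27 shared 94.6% and had the highest level of all members. RPL21 shared all of its windows (100%) and was listed at between 233 and 319 TPM. Across the 70 tested members, which are not independent replicates, Spearman's rho between the shared windows and mean TPM was -0.20. The levels of the 8 tested members with over 80% shared windows are uncertain, since a read that lies wholly within such a window has no single place. The part of this in the levels was not tested.

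**Figure D2:**
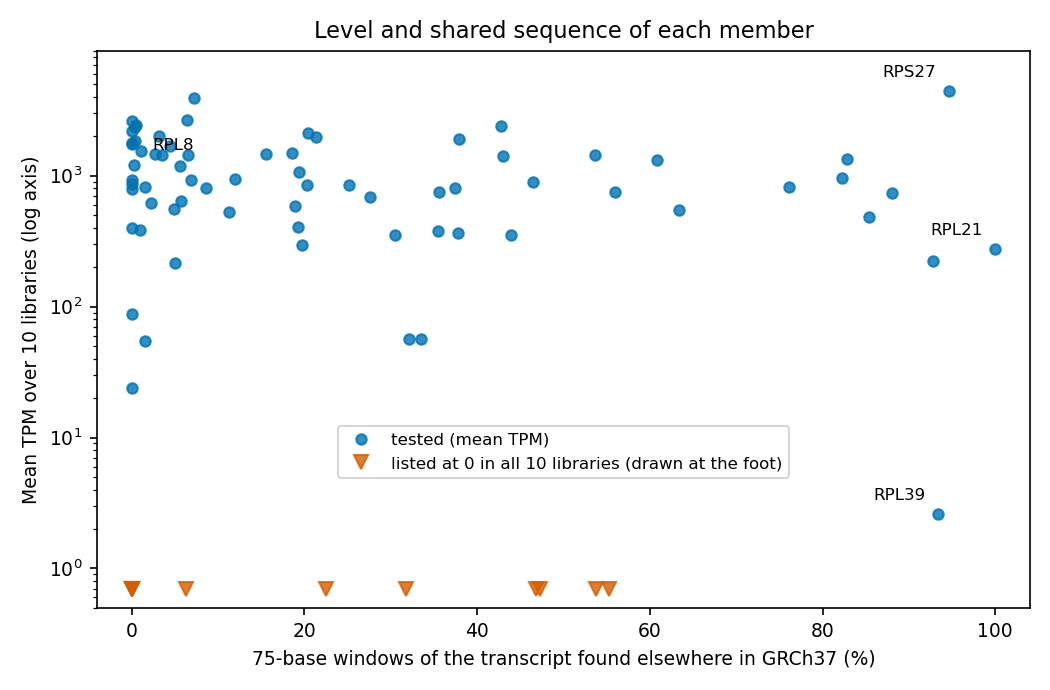
Mean TPM over the 10 libraries (log axis) against the share of 75-base transcript windows found elsewhere in GRCh37; blue dots are the 70 tested members and orange triangles the 11 members at 0, drawn at the foot. The triangles lie between 0 and 55.2% shared windows, and RPS27 at 94.6% has the highest level.

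The first question was how the summed level of the members compared between the groups. The sum was 59938 and 69408 TPM in the sgGal4 libraries. It was 81704 and 80297 TPM in K, 77889 and 77597 TPM in L, 81300 and 83497 TPM in LK, and 82578 and 84988 TPM in KL. Both sgGal4 libraries thus lay below all 8 sgHS2 libraries, and the 2 sgGal4 libraries differed from each other by more than the libraries of any other group did. As a share of all listed TPM, the members took 7.82% ± 1.02 (SD, n = 2) in sgGal4, 10.2% ± 0.0103 in K, 9.49% ± 0.0179 in L, 10.1% ± 0.0369 in LK and 10.3% ± 0.103 in KL (SD, n = 2 each). The ratio of these shares to sgGal4 was 1.30 for K, 1.21 for L, 1.29 for LK and 1.32 for KL.

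With the mitochondrially encoded genes taken out of the total, the 2 sgGal4 libraries came close together, at 15.3 and 15.2%, and the sgHS2 libraries stood between 16.9 and 18.9%. The groups still did not overlap, and the ratios to sgGal4 were 1.15 for K, 1.16 for L, 1.17 for LK and 1.21 for KL. The large subunit made up 57.5 to 60.9% of the summed TPM, with the highest share in sgGal4 replicate 1. No test was made on these sums.

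**Figure D3:**
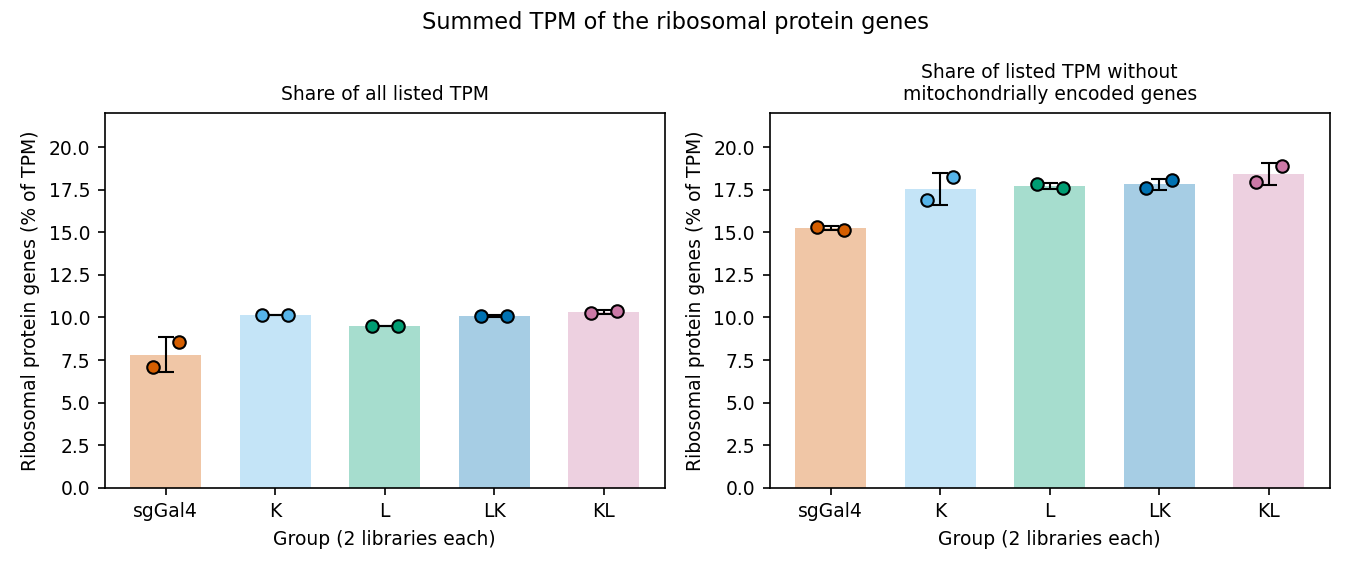
Share of the listed TPM taken by the 83 members, in percent, over all listed genes (left) and without the mitochondrially encoded genes (right); dots are libraries, bars the means and error bars the SD of 2 libraries. The sgGal4 mean is 7.82% on the left and 15.2% on the right, below every sgHS2 library in both.

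The comparisons gene by gene used limma on log2(TPM + 1) with Benjamini-Hochberg adjustment over the 10127 genes, and a gene was called at an adjusted p under 0.05. Setting the 4 sgHS2 groups together against sgGal4, 24 of the 70 tested members were higher (34.3%) and 1 was lower, against 1.78% of all genes tested higher and 1.48% lower. The median change of the members was 0.32 on the log2 scale (quartiles 0.23 and 0.43), against 0.03 over all genes tested, and 68 of the 70 members had a change above 0. Among the 698 other genes averaging 100 TPM or more, which are nearer to the members in level, the median was 0.11 and 68 (9.74%) were higher. For 38 of the 70 members both sgGal4 libraries lay below all 8 sgHS2 libraries, which held for 6.53% of all genes tested. Fewer members were called when sgGal4 replicate 1 or any 1 of the 8 sgHS2 libraries was left out, and more without sgGal4 replicate 2. Without sgGal4 replicate 1, the median change of the members fell to 0.24, and that over all genes tested fell to -0.11. Quantile normalization left 10 called members and a median of 0.12, and without the mean-variance trend 0 were called in limma, with 22 at an unadjusted p under 0.05. The replicate 1 library held the lowest value of 49 of the 70 members, and replicate 2 that of 12.

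**Figure D4:**
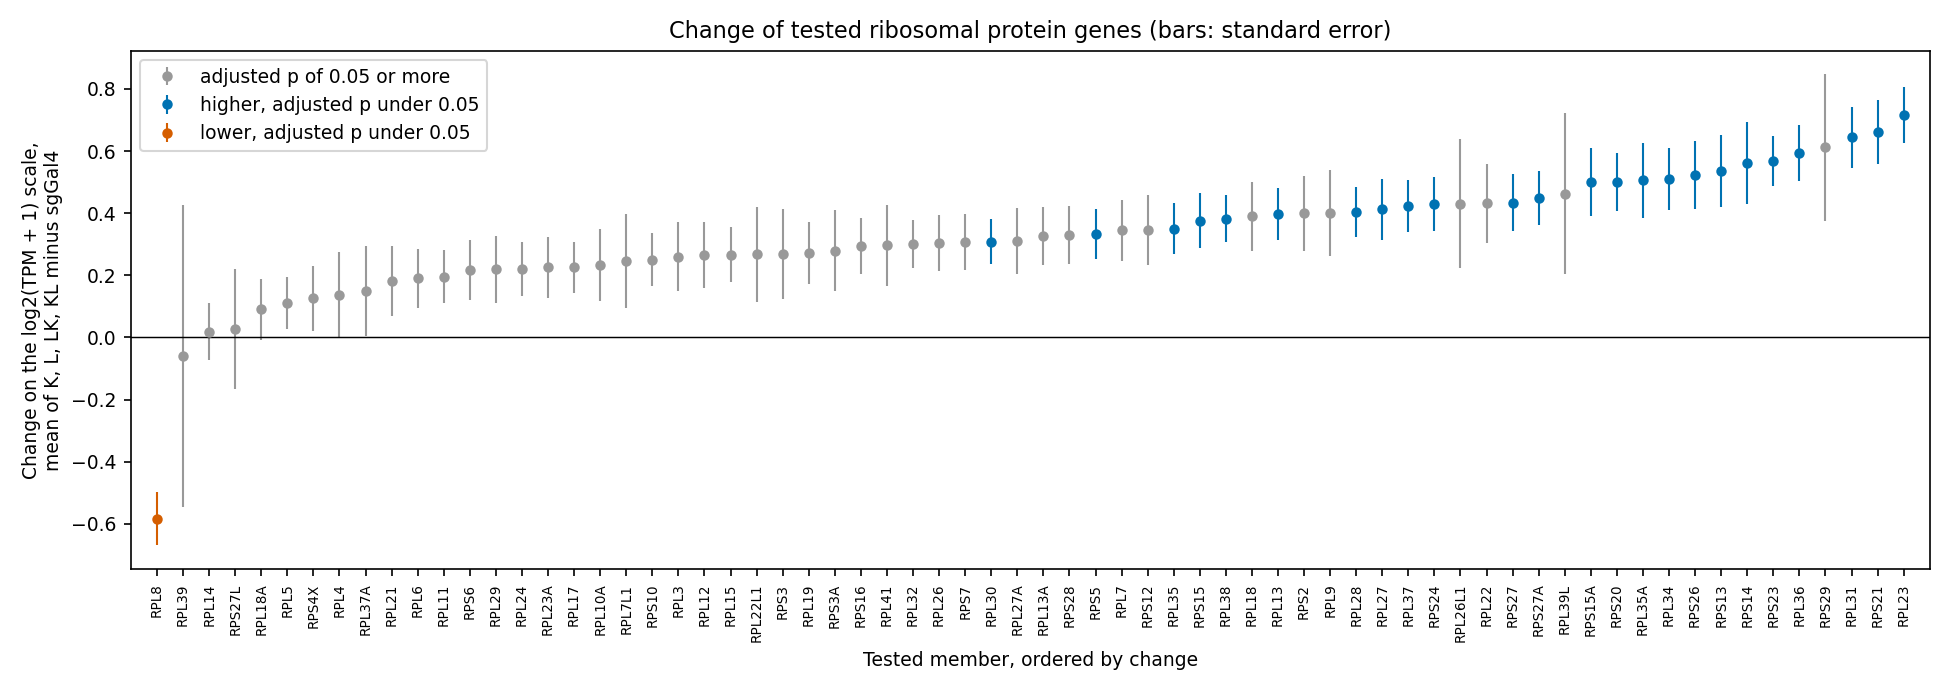
Change of 68 of the 70 tested members, leaving out 2 genes not reported here, mean of K, L, LK and KL minus sgGal4, on the log2(TPM + 1) scale with its standard error; blue and orange mark adjusted p under 0.05 (limma). All members drawn but RPL8 and RPL39 lie above 0.

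The members with the largest called rises were RPL23, RPS21, RPL31, RPL36 and RPS23. RPL23, a large subunit protein at the interface of the subunits, was at 968 and 1068 TPM in sgGal4, at 1767 and 1727 TPM in K, at 1482 and 1669 TPM in L, at 1840 and 1848 TPM in LK and at 1413 and 1670 TPM in KL. All 8 sgHS2 libraries were above both sgGal4 libraries, and the change in their mean was 0.72 ± 0.09 on the log2 scale (SE, limma adjusted p = 0.000605). RPL23 lies on chromosome 17 at chr17:37004113-37010017 (GRCh37, minus strand, 5 exons).

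RPS21, a small subunit protein whose start holds a run of 12 pyrimidines, was at 559 and 607 TPM in sgGal4. It was at 1059 and 914 TPM in K, 976 and 943 TPM in L, 859 and 1035 TPM in LK, and 751 and 872 TPM in KL. The groups did not overlap, with KL replicate 1 nearest to sgGal4, and the change was 0.66 ± 0.10 (SE, limma adjusted p = 0.00309).

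RPL31, a large subunit protein near the tunnel exit, was at 1051 and 922 TPM in sgGal4. The other groups had 1566 and 1540 TPM in K, 1546 and 1589 TPM in L, 1583 and 1754 TPM in LK, and 1225 and 1563 TPM in KL. Every sgHS2 library was again above sgGal4, and the change was 0.64 ± 0.10 (SE, limma adjusted p = 0.00278). Here sgGal4 replicate 1 was the higher of the 2 controls, unlike in 55 of the 70 members.

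RPL36 was at 1413 and 1735 TPM in sgGal4 and between 2275 and 2564 TPM in the 8 sgHS2 libraries, a change of 0.59 ± 0.09 (SE, limma adjusted p = 0.00257). RPS23 was at 1870 and 1980 TPM in sgGal4 and between 2704 and 3109 TPM in the others, a change of 0.57 ± 0.08 (SE, limma adjusted p = 0.00169). For both genes the gap between the groups was wider than the range within either. RPL38, which is known from mice for the translation of Hox mRNAs, was at 2017 and 2186 TPM in sgGal4 and between 2381 and 2857 TPM in the others, a change of 0.38 ± 0.07 (SE, limma adjusted p = 0.0124).

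RPL8 was the only member called lower, in this and in each of the 4 single comparisons with sgGal4. Its protein sits close to the peptidyl transferase center, where the peptide bond is formed. It was at 2294 and 2525 TPM in sgGal4. The values were 1547 and 1739 TPM in K, 1551 and 1587 TPM in L, 1735 and 1524 TPM in LK, and 1651 and 1526 TPM in KL. Both sgGal4 libraries were above all others, which held for 5.29% of all genes tested, and RPL8 was the only one of the 70 members whose highest value lay in an sgGal4 library. The change in the mean of the sgHS2 groups was -0.58 ± 0.09 on the log2 scale (SE, limma adjusted p = 0.00236), the reverse of the shift of the other members. RPL8 shared no 75-base window with another place in the genome. The gene lies at the end of the long arm of chromosome 8 (GRCh37, 146015150 to 146017972, minus strand, 5 exons).

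The surroundings of RPL8 were read after its values had been seen. Of the 25 other protein-coding genes tested within 1 Mb, none was called lower (limma) and none was lower at an unadjusted p under 0.05 in the mean of the sgHS2 groups. Their median change was 0.34, and 6 of the 25 were below 0. Of the other members on chromosome 8, RPS20 was at 1375 and 1805 TPM in sgGal4 and between 1933 and 2442 TPM in the others, and was called higher with a change of 0.50 ± 0.09 (SE, limma adjusted p = 0.0104). RPL30 was called higher with a change of 0.31 ± 0.07 (SE, limma adjusted p = 0.0363), and RPL7 had 0.34 ± 0.10 (SE, limma adjusted p = 0.0789), which did not pass. The call of RPL30 held in only 2 of the 18 alternatives of the processing.

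In K against sgGal4, 11 of 70 members were higher (15.7%) and RPL8 lower, where 0.879% of all genes tested were higher and 0.741% lower. The median change of the members was 0.32, against 0.06 over all genes. Of the 698 other genes averaging 100 TPM or more, 4.73% were higher and the median was 0.15. The largest called rises were RPL23 with 0.78 ± 0.11 (SE, limma adjusted p = 0.00404), RPS21 with 0.76 ± 0.13 and RPL31 with 0.66 ± 0.12. RPS26, which lies near the mRNA exit of the small subunit, followed with 0.64 ± 0.14, from 262 and 296 TPM in sgGal4 to 443 and 423 TPM in K. RPL36 rose by 0.56 ± 0.11. Leaving out any 1 of the 10 libraries moved this count of 12 called members by more than 1.5 times, and the median stayed between 0.21 and 0.48. Its ends were the refits without sgGal4 replicate 1 and without sgGal4 replicate 2, where the median over all genes tested moved as well, to -0.09 and 0.19.

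In L against sgGal4, 5 of 70 members were higher (7.14%) and RPL8 lower, where 0.306% of all genes tested were higher and 0.563% lower. The median change was 0.26, against 0.005 over all genes, and for the 698 abundant other genes the share higher was 1.58% and the median 0.06. The 5 were RPS21 with 0.72 ± 0.13 (SE), RPL31 with 0.67 ± 0.12, RPL23 with 0.63 ± 0.11, RPL36 with 0.60 ± 0.11 and RPS23 with 0.53 ± 0.10. The adjusted p of these 5 in limma lay between 0.0173 for RPL23 and 0.0249 for RPS23. The count of 6 called members depended on single libraries. The median of the members was 0.18 without sgGal4 replicate 1 and 0.38 without sgGal4 replicate 2, while that over all genes tested was -0.13 and 0.14.

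In LK against sgGal4, 15 of 70 members were higher (21.4%) and RPL8 lower, where 1.18% of all genes tested were higher and 0.829% lower. The median change was 0.38, against 0.03 over all genes, and of the 698 abundant other genes 8.88% were higher, with a median of 0.15. RPL23 had the largest called rise with 0.86 ± 0.11 (SE, limma adjusted p = 0.00180), followed by RPL31 with 0.76 ± 0.12, RPS21 with 0.69 ± 0.13, RPS26 with 0.64 ± 0.14 and RPS20 with 0.61 ± 0.12. RPL26L1, the paralogue of RPL26, had a larger change of 0.88 ± 0.26 that did not pass (limma adjusted p = 0.119), from 35.3 and 50.5 TPM in sgGal4 to 67.8 and 91.7 TPM in LK. The count of 16 called members depended on single libraries. Without sgGal4 replicate 1 the median of the members was 0.26 and that over all genes tested -0.11. Without sgGal4 replicate 2 they were 0.46 and 0.16.

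In KL against sgGal4, 7 of 70 members were higher (10.0%) and RPL8 lower, where 0.632% of all genes tested were higher and 0.731% lower. The median change was 0.35, against 0.05 over all genes, while 2.29% of the 698 abundant other genes were higher and their median was 0.09. RPL28, a large subunit protein with no counterpart in budding yeast, had the largest called rise with 0.76 ± 0.10 (SE, limma adjusted p = 0.00130). It was at 1799 and 2035 TPM in sgGal4, at 2168 and 2437 TPM in K, at 2369 and 2170 TPM in L, at 2434 and 2441 TPM in LK and at 3248 and 3239 TPM in KL. The 2 KL libraries thus stood above all others. RPS27 rose by 0.63 ± 0.12 in KL (SE, limma adjusted p = 0.0121), with 2958 and 3945 TPM in sgGal4 and 5181 and 5434 TPM in KL. The other called members were RPL36 with 0.63 ± 0.11, RPS23 with 0.60 ± 0.10, RPL23 with 0.60 ± 0.11, RPS28 with 0.52 ± 0.12 and RPL38 with 0.44 ± 0.09. The count of 8 called members depended on single libraries. Without sgGal4 replicate 1 the median of the members was 0.26 and that over all genes tested -0.09. Without sgGal4 replicate 2 they were 0.45 and 0.18.

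**Figure D5:**
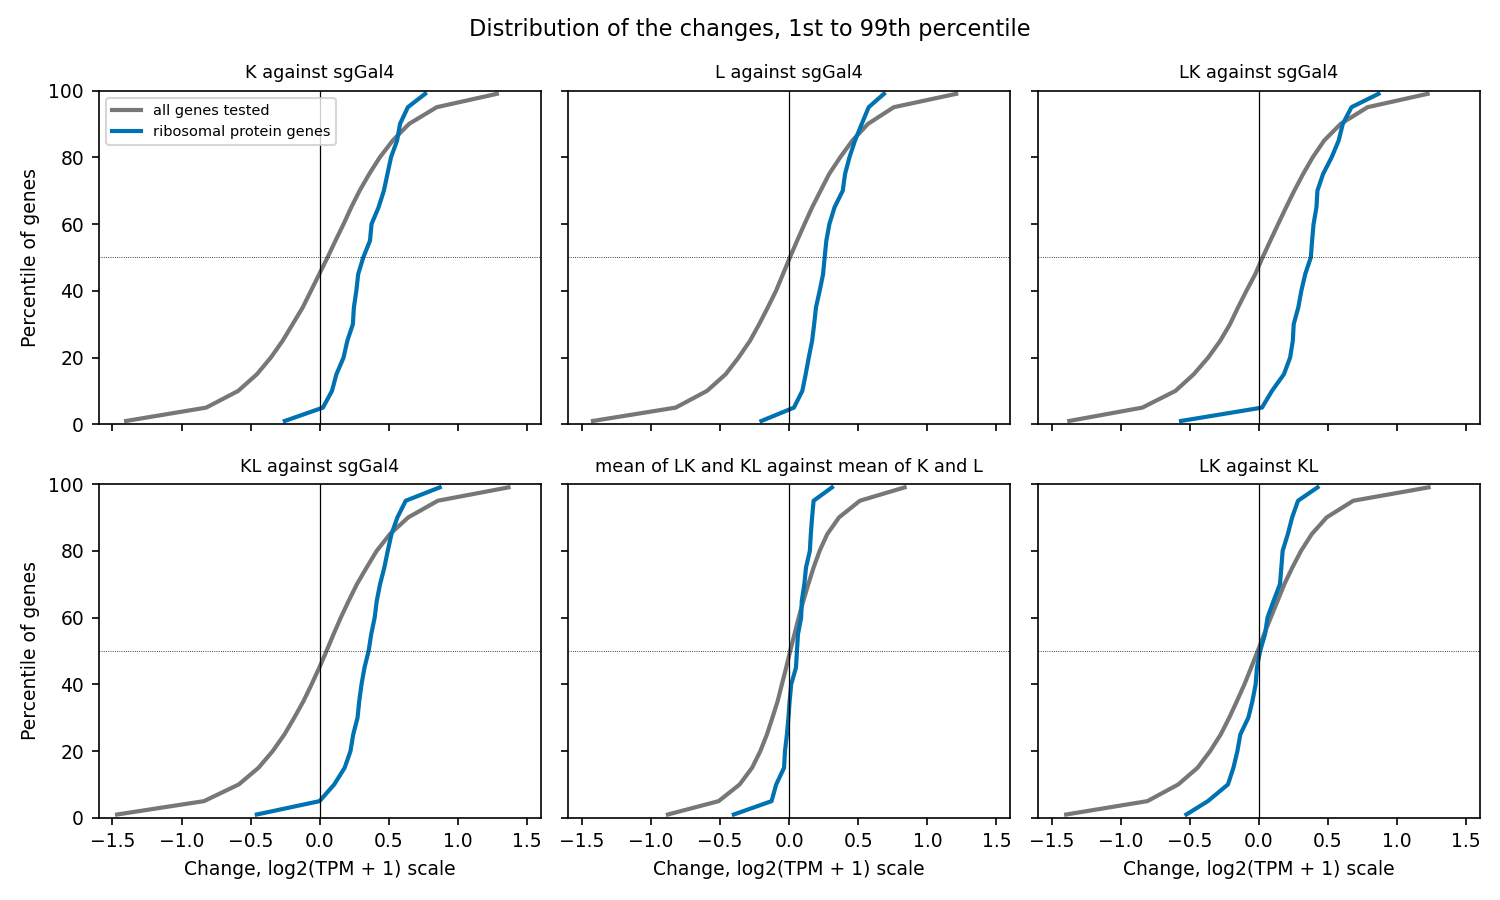
Percentile of genes against the change on the log2(TPM + 1) scale for the 70 tested members (blue) and all 10127 genes tested (grey), in 6 comparisons. The blue curve lies to the right of the grey one at the median in the 4 comparisons with sgGal4, with medians between 0.26 and 0.38, and close to it in the other 2.

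The 4 comparisons share the same 2 control libraries, so the calls they have in common are not independent. RPL23, RPL36 and RPS23 were called higher in all 4, RPL31, RPL38 and RPS21 in 3, 5 members in 2 and 7 members in 1, which makes 18 members called higher at least once. In the single comparisons, between 0.306% (L) and 1.18% (LK) of all genes tested were higher. How many of all genes were called repeatedly is not given, so the repeated calls have no background beside them. RPL36 had changes of 0.56 in K, 0.60 in L, 0.58 in LK and 0.63 in KL, and RPS23 had 0.56, 0.53, 0.59 and 0.60. RPS21 ranged further, with 0.76 in K, 0.72 in L, 0.69 in LK and 0.47 in KL, where it did not pass (limma adjusted p = 0.0909).

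Between the effectors, no member was called. In the mean of LK and KL against the mean of K and L, 0 of 70 members passed in limma, 4 had an unadjusted p under 0.05, and the median change was 0.06 against 0.01 over all genes. Of all genes tested, 0.0889% were called in either direction. RPL28 was nearest, with 0.30 ± 0.07 (SE, limma adjusted p = 0.199). In LK against KL, 0 of 70 passed in limma and 12 had an unadjusted p under 0.05, of which 6 were higher and 6 lower in LK, where 0.385% of all genes were called. The median change was 0.01. RPL28 had -0.41 ± 0.10 (SE, limma adjusted p = 0.130) and RPS27 -0.40 ± 0.12 (SE, limma adjusted p = 0.224), with 4120 and 3923 TPM of RPS27 in LK. Both were lower in LK than in KL without overlap of the libraries. This was common among the members, since 18 of the 70 were lower and 28 higher in LK without overlap. The share over all genes is not given, so no weight is put on it. A p that misses the threshold with 2 libraries a group does not show that the effectors act alike on these genes.

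Both subunits took part in the shift. In the mean of the sgHS2 groups, 12 of the 44 tested large subunit members were higher and 1 was lower, with a median change of 0.30, and 12 of the 26 tested small subunit members were higher and none lower, with a median of 0.36. RPS27A, made as a fusion with ubiquitin, was called higher with 0.45 ± 0.09 (SE, limma adjusted p = 0.0126). RPS14, known from the 5q- syndrome, was called higher with 0.56 ± 0.13 (SE, limma adjusted p = 0.0357), from 157 to 229 mean TPM.

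The members varied by a median of 1.59-fold between their highest and lowest library, and 66 of the 70 stayed within a range of 2-fold. Among the 69 members with a mean of at least 10 TPM, RPL14 varied least, between 527 and 586 TPM in the 10 libraries, and its change in the mean of the sgHS2 groups was 0.02 ± 0.09 on the log2 scale. RPL5, which with RPL11 and 5S rRNA binds MDM2, lay between 851 and 985 TPM. RPS29 varied most. It was at 252 and 503 TPM in sgGal4, 713 and 379 TPM in K, 500 and 452 TPM in L, 408 and 526 TPM in LK, and 666 and 889 TPM in KL. Every other group overlapped with the range of K, and its change of 1.11 ± 0.30 in KL did not pass (SE, limma adjusted p = 0.0877). RPL26L1 with 35.1 to 91.7 TPM and RPL39L with 15.2 to 34.6 TPM were next in spread.

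Of 14 members known to be mutated in Diamond-Blackfan anemia, 12 were tested. In the mean of the sgHS2 groups 4 of the 12 were higher, none lower, and the median change was 0.32. They were RPS26 with 0.52 ± 0.11 (SE), RPL35A with 0.51 ± 0.12, RPS27 with 0.43 ± 0.09 and RPS24 with 0.43 ± 0.09, with limma adjusted p of 0.0190, 0.0369, 0.0208 and 0.0153. The background was the 1.78% of all genes called higher, and the share in the list was close to that of all members.

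Ribosomal proteins with names outside the rule had levels of the same order and, for most, changes of the same order. Of 9 symbols fixed, 8 were listed and all were tested, and in the mean of the sgHS2 groups 2 of the 8 were higher and none lower, where 1.78% of all genes tested and 9.74% of the other genes averaging 100 TPM or more were higher. The median change was 0.33. FAU, which is made as a fusion and releases RPS30, was at 282 and 347 TPM in sgGal4 and between 378 and 459 TPM in the others, with a change of 0.45 ± 0.11 (SE, limma adjusted p = 0.0391). RPLP2, of the stalk that binds elongation factors, had 0.38 ± 0.09 (SE, limma adjusted p = 0.0435). GNB2L1, the older symbol of RACK1, was at 1800 and 2199 TPM in sgGal4 and between 1908 and 2026 TPM in the others, so its groups overlapped. GNB2L1 and RPLP1 did not share the shift, with changes of -0.03 ± 0.08 and 0.06 ± 0.13 (SE).

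Translation factors and other genes with known TOP mRNAs formed a second list of 15, of which all were tested. In the mean of the sgHS2 groups 1 of the 15 was higher and none lower, a share under the 9.74% of other genes averaging 100 TPM or more, and the median change was 0.24. EEF2, the factor of ribosomal translocation, was the one called, with 0.38 ± 0.10 (SE, limma adjusted p = 0.0463). Of 30 genes of ribosome assembly and rRNA synthesis, 29 were tested. Here 1 of the 29 was higher and none lower, a share near the 1.78% of all genes tested, and the median was 0.15. The one called was NOP56, a core protein of the box C/D particles that methylate rRNA, with 138 TPM as the mean of sgGal4 and 212 TPM as that of the sgHS2 groups, a change of 0.59 ± 0.11 (SE, limma adjusted p = 0.00794).

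Over the 10 libraries, the other genes averaging 100 TPM or more whose level followed the summed members most closely were G3BP1, PSMC3, ATP5I, SLC4A2 and NME4. Their Pearson's r with the log2 sum lay between 0.93 and 0.95 among 698 genes compared. The 10 points share their TPM scaling and include the low sgGal4 libraries, so the values are a description only. G3BP1, a protein of stress granules, had a mean of 78.7 TPM in sgGal4 and between 107 and 114 TPM in the means of the other groups. PSMC3, an ATPase of the proteasome, had 115 TPM in sgGal4 and between 169 and 187 TPM in the others.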

How the data were processed

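RNA-seq values of 10 K562 libraries, 2 for each of 5 groups named by the labels, were used. The authors aligned reads to hg19 with STAR (version 2.5.2b, per the submitters' processing notes), kept reads with a single place in the genome, and deposited 1 value per gene and library in TPM, computed by RSEM. The annotation is not given in the sources used here. For library preparation, the labels state poly(A) isolation and a directional NEBNext kit, whereas the study's methods state an Ovation kit. TPM keeps no read totals, so depth is unknown and no interval from counts is given. The study's methods name DESeq2, which takes counts and was not run.

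From the deposited TPM, log2(TPM + 1) was fitted in limma for the 10127 genes that averaged 1 TPM or more (version 3.58.1, R version 4.3.3), with all 10 libraries in 1 fit, 5 residual degrees of freedom, variances moderated along a mean-variance trend, and p-values adjusted by Benjamini-Hochberg with a threshold of 0.05. The fit gives each gene 1 spread for all 5 groups. The SD of the summed members was 6696 TPM in sgGal4 and between 207 TPM (L) and 1704 TPM (KL) in the other groups. Standard errors of comparisons with sgGal4 may therefore be too small. A change on the log2(TPM + 1) scale understates that of low genes. The step was tested on simulated data with independent noise and 1 spread per gene for all groups. That setting lacks the wider spread of sgGal4 seen here, so the test does not cover it, and its outcome is not given. The members and the lists were chosen with earlier results of these data known. Named members were those at 0 or under 1 TPM, the 5 highest and 5 lowest, the called members (the 5 largest rises and falls where over 10 were called), those called in at least 3 comparisons with sgGal4, paralogue pairs, and the 3 with the most and the least spread. Some genes that this rule names are not reported here. Lists were given by counts with up to 4 examples, among them the genes called in the mean of the sgHS2 groups. These are not always the largest changes of a list. RPL7, RPL21, RPL30, RPS9, RPS14, RPS27A and the surroundings of RPL8 were described after their values were seen. Gene positions and transcripts came from GENCODE release 44 mapped to GRCh37, and promoter windows from RefSeq (GRCh38.p14). Python version 3.11.15 with numpy version 2.4.6 and pandas version 2.3.3 was used, with matplotlib version 3.10.9 for figures. The alternatives were another pseudocount, no filter or a stricter filter on low values, size factors, quantile normalization, removal of the mitochondrially encoded genes, no trend, a blocking term for the replicate number, a fit restricted to the compared groups, and leaving out each library.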

Additional observations from a re-analysis of the deposited data

How the results depend on the processing

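The median change of the members stayed above 0 in the 5 comparisons with sgGal4 under every alternative, and no call of a named member reversed its direction in the 715 refits of such calls, of which 481 still passed the threshold and 234 did not. For many of these refits the direction was fixed beforehand. No trend, the replicate block, only the groups compared, another filter or a left-out library outside the comparison leave a gene's estimate as it was. The absence of reversals therefore speaks only for the other refits. In the mean of the sgHS2 groups, RPL8, RPL23, RPL31, RPL36, RPS21 and RPS23 passed in 17 of 18 alternatives each, whereas RPL38 passed in 13 of 18 there and in 3 of 19 for K, 3 of 19 for LK and 4 of 19 for KL. RPS28 in KL passed in 4 of 19 and RPS26 in K in 6 of 19. Among other members called in the mean, RPS27A passed there in 15 of 18 and RPS20, RPS24, RPS26 and RPS27 in 14 of 18. RPS14 passed there in 8 of 18, RPL35A in 6 of 18 and RPL30 in 2 of 18. Members that were not called could change sign, as RPL14 did in the mean, between -0.18 and 0.09. The counts of called members moved more, given here for K, L, LK, KL and the mean of the sgHS2 groups. The counts are given without the share of all genes called under each alternative, so they describe the members only. With no filter on low values, which adds genes to the adjustment, they were 1, 0, 1, 1 and 9, with 31 members at an unadjusted p under 0.05 in limma for L. Without a mean-variance trend they were 0 in each, with 18, 7, 16, 14 and 22 at an unadjusted p under 0.05 in limma. With only the groups compared they were 1, 0 (19 at an unadjusted p under 0.05 in limma), 1 and 1, and a filter at a mean of 10 TPM gave 20 for K and 14 for KL. Size factors gave 6 for K and 9 for LK. Quantile normalization gave 4 for K, 6 for LK, 4 for KL and 10 for the mean, with medians of 0.12, 0.11, 0.11, 0.16 and 0.12 in the order above. Removal of the mitochondrially encoded genes gave medians of 0.19 for K, 0.25 for LK, 0.25 for KL and 0.22 for the mean, and shifted the median of all genes in the mean comparison from 0.03 to -0.06. In LK against KL, 1 member was called with quantile normalization (RPL28), 1 with mitochondrially encoded genes removed (RPS27), and 2 with only the groups compared (both). The cause of these moves was not tested where no construction is named.

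Leaving out each library in turn gave 0 to 31 called members for K, 0 to 24 for L, 1 to 32 for LK, 1 to 25 for KL, 7 to 34 for the mean and 0 to 2 for LK against KL. The medians then ranged from 0.21 to 0.48 for K, 0.18 to 0.38 for L, 0.26 to 0.46 for LK, 0.26 to 0.45 for KL and 0.24 to 0.45 for the mean. In the mean comparison the median over all genes tested moved as well, from -0.11 without sgGal4 replicate 1 to 0.16 without sgGal4 replicate 2. A left-out library leaves 1 in its group, which is assumed to vary like the rest. The share of all genes called in these refits is not given, so the counts do not show what is particular to the members. Without sgGal4 replicate 1, the ratio of the summed share to sgGal4 was 1.19 for K, 1.11 for L, 1.18 for LK and 1.21 for KL.

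No pairing by replicate number was seen gene by gene. The correlation over genes of the deviations of same-numbered libraries lay between -0.021 and 0.023 over the 10 pairs of groups. A correlation over genes cannot show a shift that same-numbered libraries share as a whole. With the replicate block, the counts were 10, 6, 12, 7 and 22. Depth is unknown, so its limits could not be given.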
